A study of Drosophila melanogaster with 28 samples.

Results

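MSL2 sites on chromatin assembled in vitro were compared between a mixture of MSL2 with a CLAMP mutant and a mixture of MSL2 with CLAMP. Sites were the peaks of the 2 lists made with the MSL2 antibody, and a site counted as found in both mixtures if peaks of both lists overlapped by at least 1 bp. This gave 522 sites, of 1098 regions in the 9 peak lists of the series. In both mixtures the chromatin had been built over 5 h on DNA purified from BG-3, a cell line of Drosophila larval nervous system, and was exposed to the added proteins for 30 min before crosslinking and partial MNase digestion. The labels do not say what the assembly reaction contained, and the sites are those of rebuilt chromatin, not of BG-3 cells. The labels name the mutant only as a CLAMP mutant and do not say which part of the protein was changed. Each mixture gave 3 libraries, which the authors merged before calling peaks, against a merged negative control of 3 libraries of the same antibody. The spread between libraries is therefore not known and no test between the mixtures was possible. The 95% intervals below are exact (Clopper-Pearson) and cover the counting error of peaks only, and positions are those of the dm6 build.

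MSL2 is the DNA-binding RING finger subunit of the male-specific lethal complex, which raises transcription from the single male X chromosome of Drosophila. CLAMP, which recognises GA-rich repeats through its zinc fingers, binds at many places in the genome and is known to help the complex reach its high-affinity sites on X. MSL2 also recognises a GA-rich element, through its CXC domain.

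Fewer MSL2 peaks were called with the mutant than with CLAMP. The list with the mutant held 226 peaks and the list with CLAMP 466, a ratio of 0.485. Of the 226 peaks with the mutant, 170 were found with CLAMP (75.2%, 69.1 to 80.7), and these were 36.5% of the 466 peaks with CLAMP (32.1 to 41.0). With the list with CLAMP cut to its first 226 peaks in file order, 108 were shared, 47.8% of either list. The 522 sites therefore comprised 56 found only with the mutant (10.7%), 296 found only with CLAMP (56.7%) and 170 found with both (32.6%). These shares describe how the classes were made, and nothing is read from them.

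The shorter list was the more deeply sequenced. The mutant libraries held 20849151 tags and the CLAMP libraries 14660145. Peaks held 82112 tags with the mutant and 235023 with CLAMP, which is 0.394% and 1.60% of all tags. Per peak this came to 363 tags with the mutant and 504 with CLAMP, before any scaling to depth. A peak had to reach 10-fold over the negative control. That filter removed 99.5% of 54853 putative peaks with the mutant and 98.2% of 29243 with CLAMP. A site missing from a list thus failed at least 1 filter, and its signal there is not given in the peak lists.

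Sites called in both mixtures overlap by definition, so with peaks of about 150 bp their centres could not lie far apart. The centres of the 170 shared peaks lay a median of 7 bp apart, 24 of them at the identical base and 154 within 50 bp. The largest distance was 140 bp. Most sites of a single mixture lay more than 10 kb from any peak of the other. These were 48 of the 56 found only with the mutant and 280 of the 296 found only with CLAMP. Distances from random positions were not computed, so these are not read as large. Sites found only with the mutant lay a median of 94.6 kb from the nearest peak of the list with CLAMP. Sites found only with CLAMP lay a median of 145 kb from the nearest peak of the list with the mutant. The first distance was taken to 466 peaks and the second to 226, so the medians are not compared. Both classes exclude overlapping peaks by definition. Within 1 kb of a peak of the other list lay 4 of the 56 sites found only with the mutant and 7 of the 296 found only with CLAMP.

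**Figure D1:**
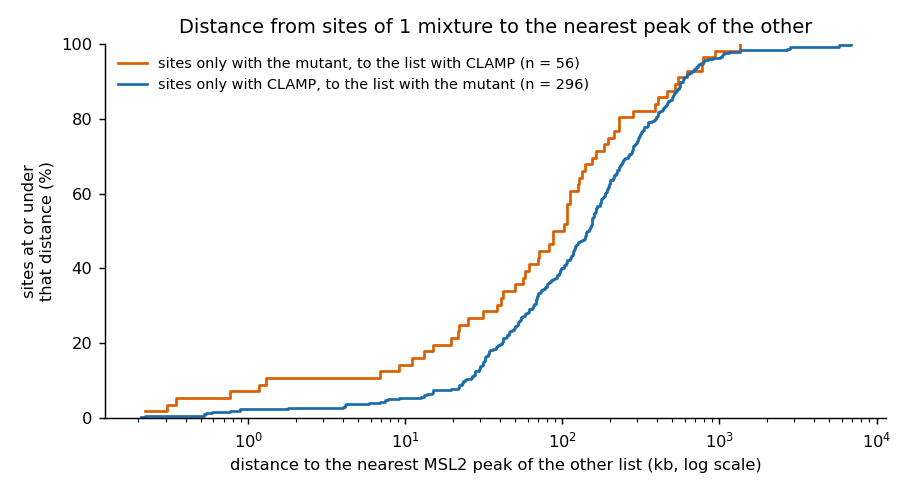
Cumulative share of sites (y axis, %) against the distance to the nearest MSL2 peak of the other list (x axis, kb, log scale), for the 56 sites found only with the mutant and the 296 found only with CLAMP. Both curves stay low up to 10 kb, where 48 sites found only with the mutant and 280 found only with CLAMP are still to come. The lists that distances were taken to differ in length, so the curves are not compared.

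The sites called only with CLAMP were more often places where the FLAG antibody precipitated the mutant or CLAMP, each added without MSL2, than were the sites found with both. The FLAG lists come from other libraries with their own negative control, which the pair of them shares. A FLAG peak of the mutant lay at 0 of the 56 sites found only with the mutant, where 3 counts of the total set a limit of 5.36%. It lay at 64 of the 296 sites found only with CLAMP (21.6%, 17.1 to 26.8) and at 5 of the 170 found with both (2.94%, 0.962 to 6.73), against 13.2% of all 522 sites. A FLAG CLAMP peak lay at 0 of 56 sites found only with the mutant, at 77 of 296 found only with CLAMP (26.0%, 21.1 to 31.4) and at 6 of 170 found with both (3.53%, 1.31 to 7.52), against 15.9% of all sites. In both lists the intervals of the last 2 classes did not overlap. Among the 121 sites found only with CLAMP in the first 50% of that list in file order, the shares were higher, at 33.9% for the FLAG mutant and 38.0% for FLAG CLAMP. At 64 sites, then, the mutant gave a FLAG peak of its own where MSL2 with the mutant gave none.

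The 4 lists of the CLAMP antibody share a further negative control. With MSL2 and the mutant, its peaks lay at 2 of the 56 sites found only with the mutant, 5 of the 296 found only with CLAMP (1.69%, 0.551 to 3.90) and 1 of the 170 found with both, against 1.53% of all sites. With MSL2 and CLAMP, they lay at 1 of 56 (1.79%, 0.0452 to 9.55), 83 of 296 (28.0%, 23.0 to 33.5) and 25 of 170 (14.7%, 9.75 to 20.9), against 20.9% of all sites. The first of these lists held 70 peaks with 0.0377% of its tags and the second 429 with 0.627%, so few sites of any class could be marked by the first. For the mutant alone the counts were 0, 11 and 0 in a list of 38 peaks, against 2.11% of all sites. For CLAMP alone they were 0, 16 and 2 in a list of 74 peaks, against 3.45%.

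**Figure D2:**
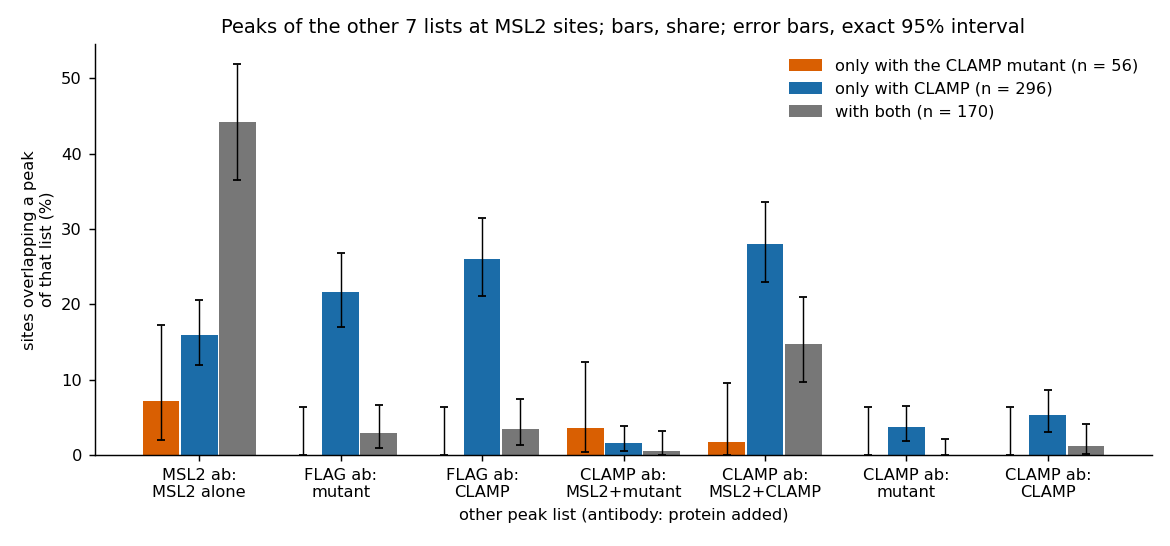
Share of MSL2 sites (y axis, %) that overlap a peak of each of the other 7 lists (x axis), for sites found only with the mutant, only with CLAMP and with both. Bars are shares and error bars exact 95% intervals. In both FLAG lists the sites found only with CLAMP stand at 21.6% and 26.0%, with the other classes at or below 3.53%.

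Seen from the 466 MSL2 peaks with CLAMP, those at FLAG CLAMP peaks were rarely found again with the mutant. The mutant mixture had a peak at 6 of the 83 that lay at FLAG CLAMP peaks (7.23%, 2.70 to 15.1) and at 164 of the 383 that did not (42.8%, 37.8 to 47.9). With peaks matched by centres within 500 bp, the first count was 11 of 90 (12.2%). The order was the same on X, with 3 of 39 (7.69%, 1.62 to 20.9) against 66 of 164 (40.2%, 32.7 to 48.2), and on the autosome arms, with 2 of 34 (5.88%, 0.720 to 19.7) against 98 of 217 (45.2%, 38.4 to 52.0). It was also the same in the first 50% of the list in file order, with 6 of 52 (11.5%, 4.35 to 23.4) against 106 of 181 (58.6%, 51.0 to 65.8), and in the second 50%, with 0 of 31 (up to 11.2%) against 58 of 202 (28.7%, 22.6 to 35.5). What the file order ranks is not stated in the headers.

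**Figure D3:**
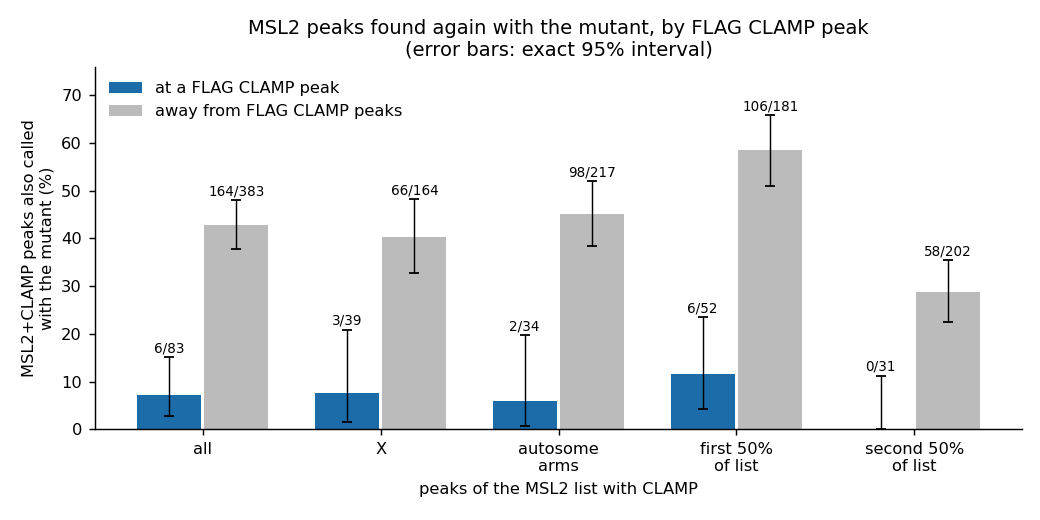
Share of the MSL2 peaks with CLAMP that were also called with the mutant (y axis, %), for peaks at and away from FLAG CLAMP peaks, over all peaks, X, autosome arms and each 50% of the list in file order (x axis), with overlap of at least 1 bp. Error bars are exact 95% intervals and labels give counts. Peaks at FLAG CLAMP peaks stay between 0 and 11.5%, and those away from them between 28.7% and 58.6%.

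The count can also be made over the FLAG peaks. Of the 224 FLAG mutant peaks, an MSL2 peak lay at 4 in the mixture with the mutant (1.79%, 0.489 to 4.51), at 69 in the mixture with CLAMP (30.8%, 24.8 to 37.3) and at 37 with MSL2 alone (16.5%, 11.9 to 22.0). Of the 354 FLAG CLAMP peaks the counts were 5 with the mutant (1.41%, 0.460 to 3.27), 83 with CLAMP (23.4%, 19.1 to 28.2) and 40 with MSL2 alone (11.3%, 8.20 to 15.1). Away from FLAG CLAMP peaks the order differed, with 221 MSL2 peaks in the mixture with the mutant, 383 in that with CLAMP and 92 with MSL2 alone. In these counts the mixture with the mutant had fewer MSL2 peaks than MSL2 alone at FLAG CLAMP sites and more elsewhere. All 3 MSL2 lists were called against the same negative control.

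The 15 sites found only with CLAMP that ranked highest by the number of other lists are named here. All were in both FLAG lists and in the CLAMP antibody list of MSL2 with CLAMP, which follows largely from the ranking, since these lists are among those counted. All but those in Rbp6, mamo and CG34353 were also in the list of MSL2 alone, which is counted too. That list held 15.9% of all 296 sites found only with CLAMP. The site in para, the voltage-gated sodium channel gene (X 16501658 to 16501808), and a site near CG34386 (2R 18062061 to 18062211) were called in all 7 other lists. A further 4 were called in 6 of them. These were in mei-P26, which encodes a TRIM-NHL protein of germline cells (X 9174130 to 9174280), CG34408 (X 10224832 to 10224982) and Rbp6, whose product binds RNA (3L 17159653 to 17159803). The fourth lay 34390 bp from CG43245, its nearest gene (3L 10737384 to 10737534). The sites called in 5 other lists lay in Hk, the beta subunit of Shaker channels (X 10257628 to 10257778), rsh, a gene of olfactory memory (X 13039254 to 13039404), mamo, a BTB zinc finger gene needed for oogenesis (X 13882458 to 13882608), acj6, a POU domain factor of olfactory neurons (X 15356678 to 15356828), bru2, of the Bruno family of RNA-binding proteins (2L 12366150 to 12366300), tei (2R 13629690 to 13629840) and CG34353 (3R 27770730 to 27770880). The last 2 by rank lay in norpA, the phospholipase C of phototransduction (X 4361614 to 4361764), and in CG1677, where it also overlaps Atg5 (X 7320974 to 7321124), each in 4 other lists. They were taken by position from 20 such sites, and another of the 20, in the homeobox gene OdsH (X 17812338 to 17812488), was not in the FLAG list of the mutant. The nearest MSL2 peak with the mutant lay between 9143 bp away, for the site in para, and 1153730 bp away, for the site in tei.

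Most sites of each class were in none of the other lists, and the share among those found only with CLAMP was near that of all sites. None of the other 7 lists held 51 of the 56 sites found only with the mutant (91.1%, 80.4 to 97.0), 179 of the 296 found only with CLAMP (60.5%, 54.7 to 66.1) and 92 of the 170 found with both (54.1%, 46.3 to 61.8), against 61.7% of all sites. A peak in any of the 3 lists of CLAMP, made with either antibody, lay at 1 of the 56 sites found only with the mutant (1.79%), at 111 of the 296 found only with CLAMP (37.5%, 32.0 to 43.3) and at 28 of the 170 found with both (16.5%, 11.2 to 22.9), against 26.8% of all sites. At the remaining sites found only with CLAMP, no CLAMP peak was called by either antibody. Among sites with no FLAG CLAMP peak, those found only with CLAMP lay a median of 81.5 kb from the nearest one and those found with both 96.0 kb.

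The sites found with both mixtures rarely held a FLAG CLAMP peak, and the 6 exceptions can be named. They lay in Tomosyn, which restrains neurotransmitter release (X 12648221 to 12648379), CG42699 (X 5788779 to 5788952), trh, which drives tracheal cell fate (3L 378058 to 378208), sif, an exchange factor of synapses (3L 5729194 to 5729375), near CG33664 (X 6379190 to 6379398) and on Y (860203 to 860353). All but the sif site were also in the FLAG list of the mutant. Of these 6, the Tomosyn site was in 5 other lists and CG42699 and trh in 4. The remaining highest-ranked shared sites lay in msl-2 (2L 3463340 to 3463491), psq, which encodes a BTB protein that binds GA repeats (2R 10583194 to 10583420), Cph, which encodes zinc fingers (X 7154068 to 7154287), and iav, a TRP channel of hearing (X 6816452 to 6816624). None of these 4 was in a FLAG list.

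The 56 sites found only with the mutant were mostly in no other list. The 5 exceptions were a site in msl-2 (2L 3463838 to 3463988), in 3 other lists, and sites in para (X 16492364 to 16492514), Slob, a potassium channel binding protein gene (2L 7654030 to 7654180), Clamp (2L 22166625 to 22166775) and near CG12589 (3R 5140374 to 5140524), each in 1. The other 51 sites were in no other list, and those named here were taken from them by position, with X first. They lay in kirre, an adhesion protein gene of muscle fusion (X 2845376 to 2845526), CG12206 (X 3465687 to 3465837), Tlk, a kinase gene (X 3768596 to 3768746), and rg, an anchor of protein kinase A (X 5165140 to 5165290), and 365 bp from Prosbeta2R1, a proteasome subunit gene (X 5808438 to 5808588).

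**Figure D4:**
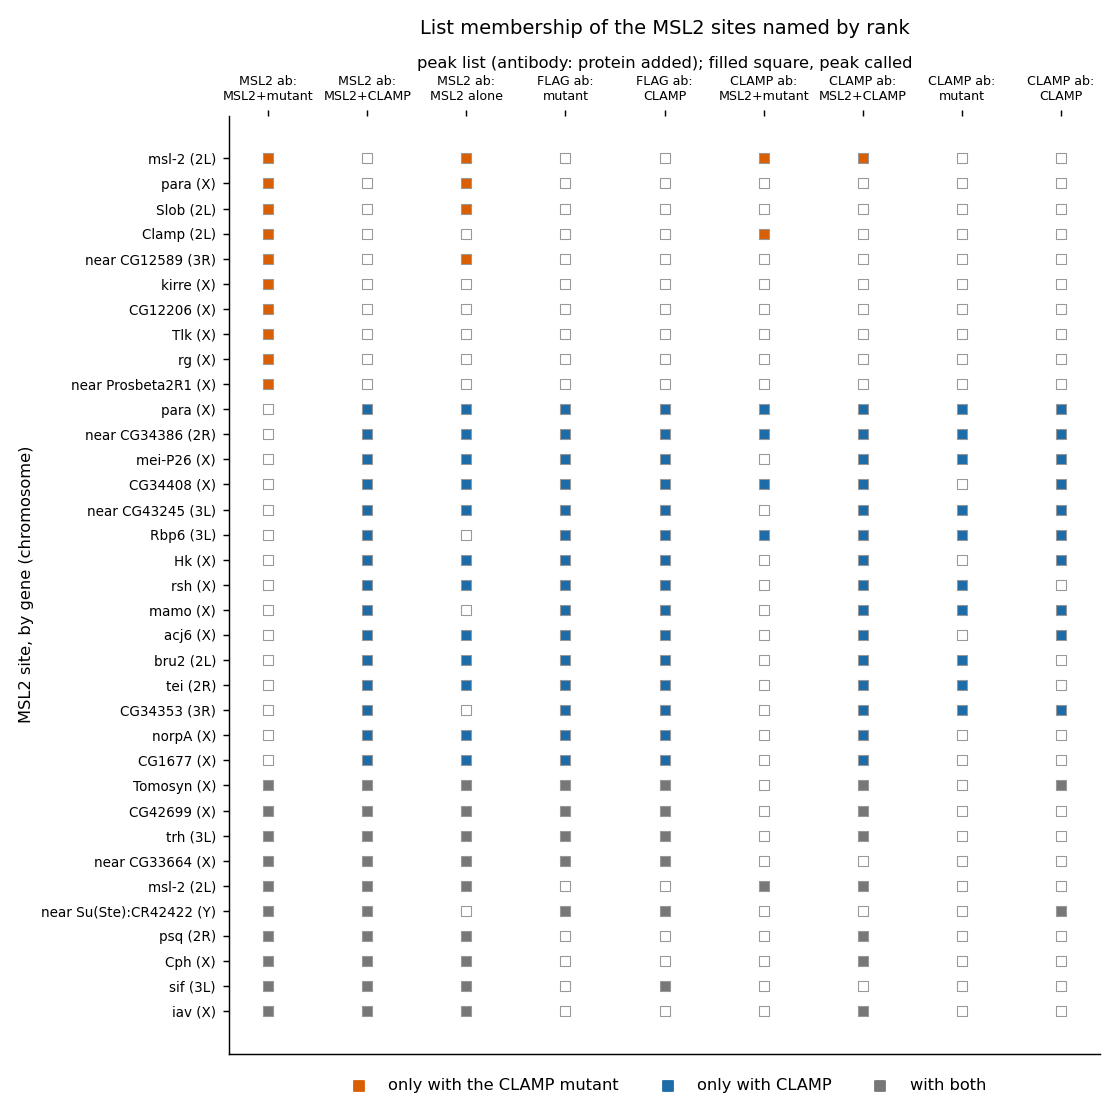
Peak lists (columns) in which each MSL2 site named by rank was called (rows, by gene and chromosome). A filled square marks a peak, with colours for sites found only with the mutant, only with CLAMP and with both. Sites were chosen by their number of filled squares, with ties taken by width and position. The 15 found only with CLAMP are therefore filled in both FLAG columns largely by choice. The 10 found only with the mutant have at most 3 filled squares in the other lists.

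MSL2 alone gave peaks at 4 of the 56 sites found only with the mutant (7.14%, 1.98 to 17.3), at 47 of the 296 found only with CLAMP (15.9%, 11.9 to 20.5) and at 75 of the 170 found with both (44.1%, 36.5 to 51.9), against 24.1% of all sites. This list shares the negative control of both mixtures, so the counts are given as a description. They differed between chromosomes among the sites found only with CLAMP, at 31 of 134 on X (23.1%, 16.3 to 31.2) and 15 of 151 on the autosome arms (9.93%, 5.67 to 15.9). Splitting the 466 peaks with CLAMP by both readouts gave 4 groups. Where MSL2 alone had a peak, the mutant mixture had one at 5 of the 37 sites with a FLAG CLAMP peak (13.5%, 4.54 to 28.8) and at 70 of the 85 without (82.4%, 72.6 to 89.8). Where MSL2 alone had none, it had a peak at 1 of the 46 with a FLAG CLAMP peak (2.17%, 0.0550 to 11.5) and at 94 of the 298 without (31.5%, 26.3 to 37.2). The share was lower at FLAG CLAMP peaks whether or not MSL2 alone had given a peak.

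By chromosome, X held 21 of the 56 arm sites found only with the mutant (37.5%, 24.9 to 51.5), 134 of the 285 found only with CLAMP (47.0%, 41.1 to 53.0) and 69 of the 169 found with both (40.8%, 33.3 to 48.6), where X is 17.6% of the arm length. The 3 intervals overlapped. In the first 50% of both lists in file order, the X shares were lower, at 8.70%, 20.1% and 16.9% in the same order of classes. On X the sites found only with CLAMP numbered 5.69 per Mb and those found with both 2.93 per Mb, and on the large autosome arms they numbered 1.23 to 1.57 and 0.832 to 1.04 per Mb. With MSL2 and CLAMP present, the CLAMP antibody marked 53 of the 134 X sites found only with CLAMP (39.6%, 31.2 to 48.4) and 29 of the 151 on the autosome arms (19.2%, 13.3 to 26.4). FLAG CLAMP marked 36 of the 134 on X (26.9%) and 32 of the 151 on the autosome arms (21.2%), each inside the other's interval. On the small set of Y sites, 0 were found only with the mutant, 11 only with CLAMP and 1 with both. Of the 11, the FLAG mutant list marked 8 and the FLAG CLAMP list 9. Those in gene bodies included sites in kl-5, a dynein heavy chain gene of sperm flagella, and in ORY, CCY and Ppr-Y. Chromosome 4 held none of the 522 sites.

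**Figure D5:**
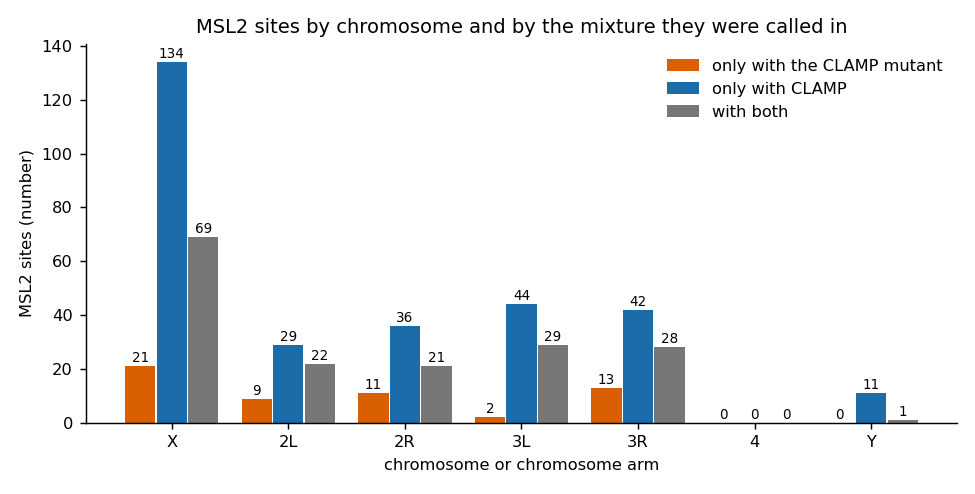
Number of MSL2 sites (y axis) on each chromosome or arm (x axis) for sites found only with the mutant, only with CLAMP and with both. On X these numbered 21, 134 and 69, and on Y 0, 11 and 1.

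Most sites lay in gene bodies. Gene bodies held 40 of the 56 arm sites found only with the mutant (71.4%, 57.8 to 82.7), 246 of the 285 found only with CLAMP (86.3%, 81.8 to 90.1) and 151 of the 169 found with both (89.3%, 83.7 to 93.6), where genes cover 69.6% of the arm bases. The host genes had a median length of 33.6, 21.1 and 21.8 kb in the same order of classes. The gene over the median gene body base of the arms was 26.4 kb long, taking the longest where genes overlap, which lies within the range of these medians. Within 1 kb of either end of a gene lay 15 (26.8%, 15.8 to 40.3), 84 (29.5%, 24.2 to 35.1) and 64 (37.9%, 30.5 to 45.6) of these sites. These intervals overlapped. The share of arm bases in that window was not counted, so these shares are not read as high or low. In all, 413 genes held a site. Of these, 33 held sites found only with the mutant and no other, and 218 held sites found only with CLAMP and no other. A further 157 held at least 1 site found with both.

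Sh, the Shaker potassium channel gene, held the most sites, 8 over 139 kb of X. There was 1 found only with the mutant, 6 found only with CLAMP and 1 found with both. The site found only with the mutant (17963132 to 17963282) lay 221 bp from a site found only with CLAMP (17963504 to 17963654) in the same gene. Of the 6 found only with CLAMP, the sites at 18023822 to 18023972 and 18035911 to 18036061 held peaks in both FLAG lists. Those at 18052378 to 18052528 and 18060668 to 18060818 were in no other list. The gene mamo held 4 sites, all found only with CLAMP, at 13882458, 13889634, 13964119 and 13967746 on X, and all 4 held a CLAMP antibody peak when MSL2 and CLAMP were added together. Genes with 3 sites, all found only with CLAMP, were eag, a potassium channel (starts 14961214, 14971178 and 14978961 on X), rdgA, a diacylglycerol kinase of photoreceptors (starts 8908291, 8924857 and 9023433), and dnc, a cAMP phosphodiesterase of memory (starts 3317531, 3318306 and 3326022, also within lncRNA:CR44886). In each of these 3 genes FLAG CLAMP marked 2 of the 3 sites. MSL2 alone marked the eag sites that start at 14971178 and 14978961 and the rdgA sites that start at 8908291 and 8924857. It marked no site in dnc.

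Other genes with 3 or more sites held sites of more than 1 class. The zinc finger gene Cph, the corepressor gene Smr and CG11122, all on X, held 3 each. In Cph and Smr, 2 were found with both and 1 only with CLAMP. In CG11122 the order was reversed, with 1 shared site (11117755 to 11117909) between 2 found only with CLAMP. The active zone gene brp on 2R and the homeobox gene hth on 3R each had 1 shared site and 2 found only with CLAMP. The zinc finger gene disco-r held only 2 sites. A shared site there (X 16146948 to 16147100) held no FLAG peak, and a site found only with CLAMP (16147689 to 16147839), 590 bp from the nearest peak with the mutant, held peaks in both FLAG lists. Sites found only with the mutant and sites found only with CLAMP met in 7 genes. These were Sh, para, the calcium channel gene cac, the ubiquitin ligase gene HUWE1, the mechanosensory channel gene Pzl, the splicing regulator gene mbl and Dpp10. In para, the site found only with the mutant lay 9143 bp from the one found only with CLAMP, and the distances were 14996 bp in HUWE1 and 22112 bp in Dpp10. None of the 7 sites found only with the mutant in these genes was in a FLAG list, as held for all 56 sites of that class.

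The gene lists were chosen with earlier results of these data known, so nothing is read from the shares of their genes that held a site. Among them, 15 of 38 ion channel genes held a site (39.5%), against 2.31% of the 17684 genes of the arms. Their median length was 34.7 kb, against 1.71 kb for the genes of the arms. The part of length in this count was not tested. The ion channel genes held 5 sites found only with the mutant (17.2%), 19 found only with CLAMP (65.5%) and 5 found with both (17.2%), against 10.7%, 56.7% and 32.6% of all 522 sites. Besides those named, Ca-alpha1T, a T-type calcium channel, held 2 sites found only with CLAMP, SK, a calcium-activated potassium channel, 1 found only with CLAMP and 1 with both, and Elk, a potassium channel, 1 found only with the mutant. Of 27 synapse and axon genes, of median length 44.5 kb, 8 held a site (29.6%), with 1 found only with the mutant, 9 found only with CLAMP and 5 found with both. Tomosyn differed from dnc and rdgA in that both of its sites were found with both mixtures. Of 48 transcription regulators, of median length 38.7 kb, 16 held a site (33.3%), with 1 found only with the mutant, in Eip93F, 18 found only with CLAMP and 8 found with both. Sites found only with CLAMP were 60.0% of those in the synapse and axon genes and 66.7% of those in the transcription regulators, near the 56.7% of all sites. The gene run, a pair-rule regulator, and Eip75B, a nuclear receptor of the ecdysone response, each held 2 sites found only with CLAMP.

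Of 9 dosage compensation genes, Clamp among them, 3 held a site in the gene body (33.3%), against 2.31% of the 17684 genes of the arms. These were roX2, msl-2 and Clamp. This list too was chosen with earlier results of these data known, so nothing is read from that share. In or within 2 kb, 4 of the 9 genes had sites, and the share over all genes was not counted for that window. The roX2 gene, which encodes an RNA of the complex (X 11579065 to 11580432), held 1 site found only with CLAMP (11580230 to 11580380), 68616 bp from the nearest MSL2 peak with the mutant. It held a CLAMP antibody peak with MSL2 and CLAMP and a peak of MSL2 alone, and neither FLAG list had a peak there. A site 824 bp from mof, whose product acetylates histone H4, lay in the body of another gene, GAA1 (X 5872789 to 5873015). It was found with both mixtures and was in no other list. The msl-2 gene held 4 sites within 3.90 kb (2L 3462218 to 3466112), of which 2 were found only with the mutant and 2 with both, and Clamp held 1, found only with the mutant. The pair found only with the mutant in msl-2 lay 346 and 305 bp from the nearest peak with CLAMP. Both msl-2 and Clamp are the genes of the added proteins. None of the msl-2 and Clamp sites was in a FLAG list, and there was no site at mle, JIL-1, roX1, msl-3 or msl-1.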

How the data were processed

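The authors deposited 1 peak list per group for 9 groups. The submitters' processing notes name Bowtie2 2.2.9, SAMtools 1.9, HOMER 4.9 and the build dm6. Peaks were called per the file headers with HOMER findPeaks in its factor style, with a peak size of 150 bp. Each had to pass a false discovery rate of 0.001, 10-fold over the merged negative control of the same antibody and 4-fold over the surrounding 10 kb. The score column of the deposited lists is 1 in every line and was not used. Per the file headers, tags of the mutant mixture were scaled to the control, and the control to the tags of the CLAMP mixture.

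Starts were made 1-based. Peaks were compared by overlap in Python 3.11.15, with the same shared counts from bedtools 2.31.1. On lists simulated at the real lengths, 170 of 170 planted shared peaks were recovered. The planted pairs all overlapped by design, so this checks the overlap code only. Sites found with both mixtures were read out at the peak of the list with CLAMP. Intervals are exact at 95% (scipy 1.17.1), and a count of 0 carries a limit of 3 counts of the total, or the upper bound of its interval. Gene positions came from RefSeq (Release 6 plus ISO1 MT), which is the dm6 assembly. The rule for named sites took the 10 found only with the mutant, 15 found only with CLAMP and 10 found with both that were in the most other lists (ties by width and position), sites at dosage compensation genes, genes with at least 3 sites or with both single-mixture classes, and up to 6 genes of each gene list. The planned count at promoters was replaced by the distance to either gene end. The genes on Y, disco-r, OdsH, Elk, Eip93F and the shared sites at FLAG CLAMP peaks outside this rule were named after their values were seen. A gene that the rule names is not reported here. The comparison and gene lists were chosen with earlier results of these data known.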

Additional observations from a re-analysis of the deposited data

How the results depend on the processing

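Of 98 values recomputed under other settings for 17 results, 85 stayed inside the 95% interval of the reported value. Some of the 85 could not have moved. No site found only with CLAMP lies in msl-2 or Clamp, so leaving out these genes cannot change the counts of that class. Reciprocal overlap of 50%, peak centres within 500 bp, the arms alone and X or the autosome arms alone moved neither share of peaks found in both lists outside it. Cutting the list with CLAMP to 226 peaks in file order gave 108 shared peaks, 47.8% of either list. This alternative, like those on FLAG sites, on the genes of the added proteins and on gene bodies, was chosen after the data were examined.

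Among sites found only with CLAMP, the share with an MSL2-alone peak was 23.1% on X and 9.93% on autosome arms. The share marked by the CLAMP antibody with MSL2 and CLAMP present was 39.6% on X, 19.2% on autosome arms and 22.1% with reciprocal overlap. In the first 50% of the list with CLAMP, the share was 33.9% for the FLAG mutant and 38.0% for FLAG CLAMP, and 58.6% of the peaks away from FLAG CLAMP sites were found with the mutant. With the first 50% of both lists, the X share was 8.70% for sites found only with the mutant, 20.1% only with CLAMP and 16.9% with both, where X is 17.6% of the arm length. The cause of these shifts was not tested.

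No paired analysis was possible because each group has 1 merged list, and no library was left out for the same reason. A stricter score threshold was not run, since the score does not vary. Signal below the filters was not analysed here, and what depth limits was not tested.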
